A study of Mus musculus with 10 samples.

Results

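The genes described here encode receptors for glutamate and for gamma-aminobutyric acid (GABA), the main excitatory and inhibitory transmitters of the brain. A list of 35 genes was used, and a peak of open chromatin was counted to a gene when it overlapped the gene or lay within 5000 bp of one of its ends, the nearest gene end deciding between several genes. This gave 27 peaks of the 37513 in the table, at 20 of the 35 genes. Chromatin accessibility was measured by ATAC-seq, in which the transposase Tn5 inserts sequencing adapters into open DNA, in nuclei cut by laser from fresh frozen sections of lung or brain. All groups came from wild-type C57BL/6J mice, and age and sex were not given in the sources used here. A library, called a mini-bulk, held either 50 nuclei captured singly or 10 captured areas of about 20 nuclei, near 200 nuclei in all. There were 3 lung libraries and 2 brain libraries of each kind, 10 in total, and mini-bulk size and mode of capture changed together. The labels describe them as technical replicates, so that p-values measure the spread between these libraries, which may be technical.

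Ionotropic glutamate receptors are cation channels of several subunits, divided into AMPA, kainate, NMDA and delta receptors by sequence and ligand. Metabotropic glutamate receptors and GABA-B receptors are coupled to G proteins, and GABA-A receptors are chloride channels of several subunits. AMPA and GABA-A receptors carry most fast excitation and inhibition in the brain, and the subunit makeup of a channel sets its kinetics and where in the neuron it sits. Some of these genes are also transcribed in glia and outside the nervous system, and GABA-A subunits and GABA-B receptors have been described in airway epithelium and smooth muscle.

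The brain libraries had 319307 to 465489 reads in nuclear peaks and the lung libraries 340697 to 3075377. Mitochondrial DNA took 93.4 to 95.8% of the reads in brain and 24.7 to 58.0% in lung, so levels are given as reads per 1000000 nuclear-peak reads (RPM). A single read was worth 2.15 to 3.13 RPM in brain and 0.325 to 2.94 RPM in lung. The lung libraries of 50 nuclei labelled replicates 2 and 3 had a read in 60.9 and 56.1% of nuclear peaks, against 86.2 to 97.6% in the other libraries. Of the 27 receptor peaks, 6 and 7 had a read in these 2 libraries, 13 to 21 in the other lung libraries, and 26 or 27 in each brain library. Peaks at neuron marker genes (15 peaks at 9 of 10 genes, among them Rbfox3, Map2 and Snap25) summed to 312 to 409 RPM in brain and 21.9 to 167 RPM in lung, and 9 of the 15 were higher in brain. Peaks at 8 endothelial marker genes summed to 372 to 577 RPM in brain and 1248 to 1850 RPM in lung, with 18 of 44 higher in lung. Oligodendrocyte markers had 4 of 13 peaks higher in brain, with overlapping sums of 256 to 397 RPM in brain and 129 to 287 RPM in lung. Alveolar type 1 markers had 5 of 24 peaks higher in lung, all at Clic5. Their sums were separate, at 198 to 282 RPM in brain and 357 to 601 RPM in lung. The sums of the astrocyte, alveolar type 2 and immune lists overlapped between tissues. Astrocyte markers had 1 of 6 peaks higher in brain with sums of 47.0 to 94.5 RPM in brain and 28.4 to 80.9 RPM in lung. Alveolar type 2 markers had 0 of 10 in either direction (128 to 200 and 182 to 232 RPM) and immune markers 0 of 4 (35.1 to 41.0 and 9.13 to 49.8 RPM). Over all tested peaks 5.78% were higher in brain and 4.35% in lung, by the edgeR test given below. No marker gene with a peak was at 0 in all libraries of a tissue. A mini-bulk mixes cell types, and a different share of nuclei of a type and a different accessibility per nucleus cannot be told apart.

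Peaks at 6 receptor genes lay over a promoter in RefSeq's table for GRCm38.p6, the assembly also named mm10. The table matched 25 of the 35 genes, with 32 windows of 300 bases, each from 250 bases before a transcript's start. The sequences of these 6 genes are shown because peaks lay over their starts or just beside them. They run from 250 bases before the start through the first 30 of the transcript. They are written 5′ to 3′ on the gene's strand, and capitals mark bases under a peak.
Grik2, window chr10:49788705-49789004, minus strand: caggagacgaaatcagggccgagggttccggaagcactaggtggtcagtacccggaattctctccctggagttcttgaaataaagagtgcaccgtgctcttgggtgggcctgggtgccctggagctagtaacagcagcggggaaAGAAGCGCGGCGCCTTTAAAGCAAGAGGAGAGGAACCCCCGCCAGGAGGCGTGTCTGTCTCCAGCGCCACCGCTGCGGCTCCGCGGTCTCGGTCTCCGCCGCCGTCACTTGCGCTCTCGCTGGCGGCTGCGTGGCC
Grin1, window chr2:25319138-25319437, minus strand: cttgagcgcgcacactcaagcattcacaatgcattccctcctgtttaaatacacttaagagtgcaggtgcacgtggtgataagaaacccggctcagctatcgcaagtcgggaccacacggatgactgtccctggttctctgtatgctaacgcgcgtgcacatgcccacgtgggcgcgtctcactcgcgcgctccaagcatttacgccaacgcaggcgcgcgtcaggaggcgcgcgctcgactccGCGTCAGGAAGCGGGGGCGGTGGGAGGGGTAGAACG
Grm7, window chr6:110645348-110645647, plus strand: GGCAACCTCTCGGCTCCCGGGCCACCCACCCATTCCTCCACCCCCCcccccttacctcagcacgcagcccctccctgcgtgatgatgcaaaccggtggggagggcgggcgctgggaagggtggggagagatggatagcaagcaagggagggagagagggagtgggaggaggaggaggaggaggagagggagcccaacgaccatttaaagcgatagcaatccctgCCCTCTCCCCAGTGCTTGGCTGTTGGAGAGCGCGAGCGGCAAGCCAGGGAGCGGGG
Gabra2, window chr5:71095800-71096099, minus strand: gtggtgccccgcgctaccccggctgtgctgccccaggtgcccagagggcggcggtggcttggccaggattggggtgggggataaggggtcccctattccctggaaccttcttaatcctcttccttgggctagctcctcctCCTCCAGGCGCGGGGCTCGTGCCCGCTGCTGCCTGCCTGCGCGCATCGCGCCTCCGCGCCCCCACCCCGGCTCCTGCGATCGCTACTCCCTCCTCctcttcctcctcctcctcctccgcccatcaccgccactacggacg
Gabrb1, window chr5:71657671-71657970, plus strand: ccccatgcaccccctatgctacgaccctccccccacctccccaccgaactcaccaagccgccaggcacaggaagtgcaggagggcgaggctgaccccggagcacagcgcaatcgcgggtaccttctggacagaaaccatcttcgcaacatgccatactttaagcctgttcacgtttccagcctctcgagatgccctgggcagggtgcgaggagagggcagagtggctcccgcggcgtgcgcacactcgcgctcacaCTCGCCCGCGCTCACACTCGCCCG
Gabbr1, window chr17:37045716-37046015, plus strand: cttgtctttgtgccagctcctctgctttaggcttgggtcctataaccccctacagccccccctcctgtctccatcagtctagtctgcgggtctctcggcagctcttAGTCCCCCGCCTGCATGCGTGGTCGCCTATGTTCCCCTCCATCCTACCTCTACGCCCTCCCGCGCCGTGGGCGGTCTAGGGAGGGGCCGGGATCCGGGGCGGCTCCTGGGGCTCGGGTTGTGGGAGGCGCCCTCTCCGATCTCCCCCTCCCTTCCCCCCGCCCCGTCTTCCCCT
The Grm7 window held 2 separate peaks. A second RefSeq window of Grm7, which starts upstream at base 110645262 and overlaps the one shown, was also touched by the first of them. The share of G and C was 60.7 to 70.0% over the 7 windows under a peak, which include both Grm7 windows. Its median was 66.0%, against 58.7% in the 25 receptor windows with no peak and 52.7% over all 32851 windows of the table. The observed over expected CpG ratio had a median of 0.721 in the 7 windows, 0.519 in the 25 and 0.384 over all windows.

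Motifs were searched over the full 300 bases on both strands. The Sp1 box GGGCGG was in 5 of the 7 windows under a peak, in 16 of the 32 receptor windows and in 11714 of all 32851 windows (35.7%). It occurred once in Grin1, from position 8 with the first transcribed base as 0, under the peak, and 3 times in Gabbr1, each time under the peak. Gabra2 had 2 and each Grm7 window 1, all outside the peaks. The Grm7 windows overlap, and their box is the same site, counted in both. The Grik2 and Gabrb1 windows had none. None of the 7 windows held the cyclic AMP response element TGACGTCA (in 1.79% of all windows), the RE1 parts TTCAGCACC (0.371%) and GGACAGC (6.56%), the E boxes CAGCTG (16.3%) and CATCTG (17.2%), or the letters TATAAA (13.6%). RE1 is the site of REST, a repressor of neuronal genes outside neurons. These matches describe letters only, and overlapping matches were each counted.

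**Figure D1:**
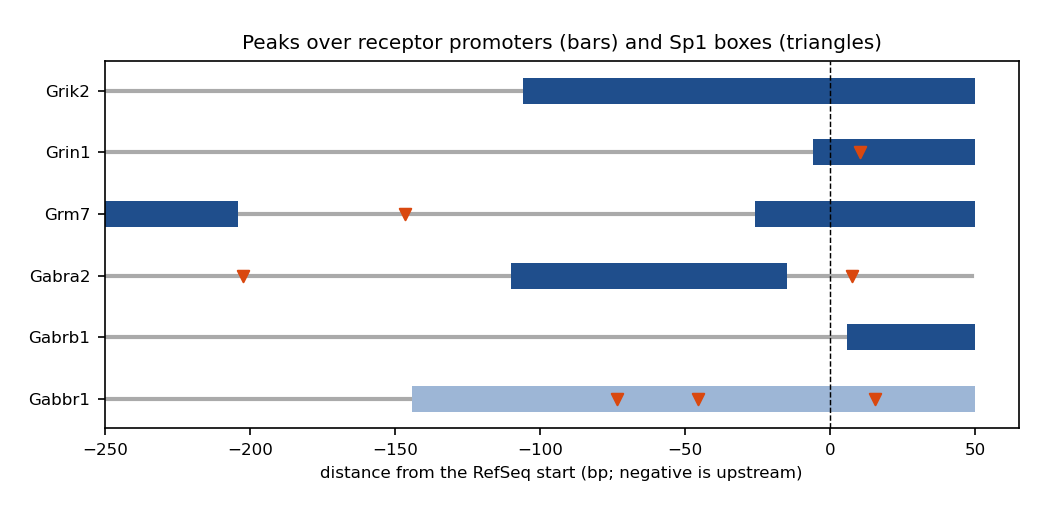
Position of peaks over the promoter windows of 6 receptor genes. The horizontal axis is distance from the RefSeq start in bp, grey lines are the windows, dark bars are peaks higher in brain, the pale bar is the Gabbr1 peak that was not, and triangles are Sp1 boxes. Peaks reach over the start in Grik2, Grin1, Grm7 and Gabbr1, begin just after it in Gabrb1 and end before it in Gabra2.

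More of the receptor peaks were called higher in brain than in lung. With edgeR's quasi-likelihood test and Benjamini-Hochberg adjustment over all 37466 tested peaks at 0.05, averaged over both sizes, 16 of the 27 peaks, at 13 genes, were higher in brain, and 2166 of all tested peaks were (5.78%). None of the 27 was higher in lung, against 1630 of all peaks (4.35%). At 14 of the 27 every brain library exceeded every lung library, which held for 8.4% of nuclear peaks. Every lung library exceeded every brain library at 0 of the 27 and at 4.94% of nuclear peaks. The median log2 fold, brain over lung, was 3.36 over the receptor peaks and 0.07 over all peaks. DESeq2 placed 17 of the 27 higher in brain and 0 higher in lung, beside 9.04% and 5.68% of all peaks. The genes were chosen with earlier results of these data known. Some called peaks, such as that of Grm5 with 16 brain reads and 1 lung read, reached the filter of 10 reads in all only through brain. The counts therefore describe these peaks and are not a test of the receptor genes as a set.

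The level of the whole set was summed without the Grik5 peak, which held more reads than any other. It was 643 and 711 RPM in the brain libraries of 50 nuclei, and 677 and 496 RPM in those of 200 nuclei. In lung the lowest sum was 65.7, the median 118 and the highest 176 RPM. The groups did not overlap.

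**Figure D2:**
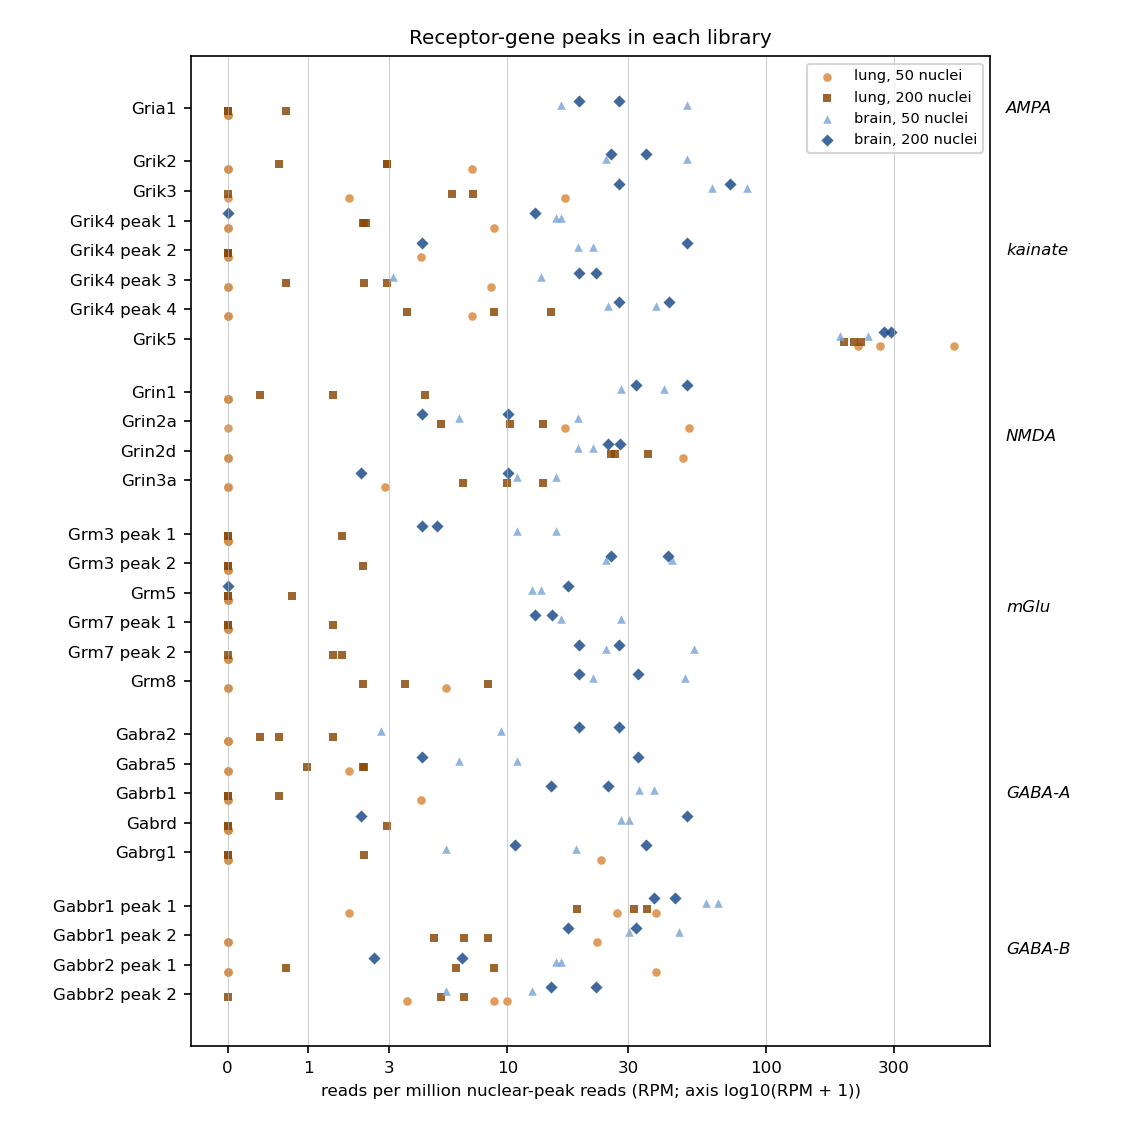
Level of the 27 receptor peaks in each library, in reads per 1000000 nuclear-peak reads on an axis of log10(RPM + 1). Each symbol is a library (lung n = 3 and brain n = 2 at each size), and peaks of a gene are numbered in chromosome order. Brain symbols lie to the right of lung symbols at 14 peaks, while those of Grik5, Grin2a and Grin2d are mixed.

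In the values that follow, the brain libraries are given as replicates 1 and 2 at 50 nuclei and then at 200 nuclei, and lung as the lowest, median and highest of 6 libraries. Ratios are pooled reads per nuclear read with an exact 95% interval, which covers counting error only. Log2 folds of the model average both sizes, and where a lung group was at 0 they depend on a small prior count. Their SE is the absolute log2 fold divided by the square root of the test's F statistic. It is derived from the test and not estimated directly, so it is a rough guide to precision. All adjusted p-values for peaks are from the edgeR quasi-likelihood test with Benjamini-Hochberg adjustment over all tested peaks. Peaks of different width are not compared in level.

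Of the 4 AMPA subunit genes, Gria1 had a peak, in the gene body at chr11:57170236-57170343. Gria1 encodes GluA1, a subunit whose insertion at synapses accompanies potentiation. The peak had 16.4, 50.1, 27.6 and 19.3 RPM in brain, and 0, 0 and 0.650 RPM in lung, where 5 of 6 libraries had no read. No lung library reached the lowest brain library. The 42 brain reads against 2 lung reads gave a ratio of 106 (27.6 to 906), and the log2 fold was 6.83 ± 1.25 (SE, adjusted p = 0.000345). It passed the threshold in each of the 10 fits that left out a library. Gria2, Gria3 and Gria4, the other pore-forming AMPA subunits, had no peak.

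Kainate receptors, which act on both sides of the synapse, had 7 peaks at 4 of 5 genes, and 4 peaks were higher in brain. Grik2, Grik3 and Grik1 encode the subunits that form channels by themselves, and Grik4 and Grik5 the high-affinity subunits that join them. The Grik2 peak over the promoter shown above (chr10:49788679-49788860) had 24.6, 50.1, 35.1 and 25.8 RPM in brain and 0, 1.74 and 7.11 RPM in lung. The groups were separate, with a ratio of 13.6 (7.88 to 24.4) and a log2 fold of 3.68 ± 0.88 (SE, adjusted p = 0.0050). Without brain replicate 2 at 50 nuclei the adjusted p of the Grik2 peak was 0.0743 by the same edgeR test. The Grik3 peak (chr4:125703035-125703256, gene body) had 84.8, 62.6, 27.6 and 73.0 RPM in brain and 0, 3.84 and 17.1 RPM in lung. It was the best covered of the brain-higher peaks, with 96 brain reads and 44 lung reads, a ratio of 11 (7.65 to 16.2) and a log2 fold of 3.36 ± 0.66 (SE, adjusted p = 0.000712). It stayed past the threshold whichever library was left out. Grik1 had no peak.

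Grik4 had 4 peaks spread over a gene of 426819 bp, numbered here in chromosome order. Peak 2 (chr9:42642955-42643054, gene body) had 19.2, 21.9, 50.1 and 4.30 RPM in brain, and reads in 1 lung library, at 4.27 RPM, with a lung median of 0. The groups touched closely, the lowest brain library and the highest lung library differing by less than 1 read, and 36 brain reads against 3 lung reads gave a ratio of 60.7 (19.2 to 308). The log2 fold of peak 2 was 5.57 ± 1.16 (SE, adjusted p = 0.00146), and the adjusted p was 0.0679 without brain replicate 1 at 200 nuclei. Peak 4 (chr9:42944856-42944953) lay 95.5 bp inside the upper end of the gene, upstream of the RefSeq start of this minus-strand gene in the promoter table. It had 38.3, 25.1, 27.6 and 43.0 RPM in brain and 0, 5.38 and 15.0 RPM in lung, without overlap, and a log2 fold of 2.66 ± 0.79 (SE, adjusted p = 0.0258). The adjusted p of peak 4 was above 0.05 in 6 of the 10 fits without a library, namely without lung replicates 2 or 3 at 200 nuclei or any brain library, and reached 0.152. Peak 3 (chr9:42871776-42871871) did not pass, at 13.7, 3.13, 22.6 and 19.3 RPM in brain and 0, 1.43 and 8.53 RPM in lung (log2 2.35 ± 1.05 SE, adjusted p = 0.152). Its lung maximum came from replicate 1 at 50 nuclei, without which the adjusted p was 0.0164. Peak 1 did not pass either (log2 2.16 ± 1.11 SE, adjusted p = 0.217), and passed without lung replicate 2 at 50 nuclei (adjusted p = 0.0463).

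The peak counted to Grik5 (chr7:25076811-25077406) differed from the other receptor peaks in place and width. It was 595 bp wide, against a median of 114 bp for the receptor peaks, and lay 1414.5 bp beyond the end of Grik5, inside the neighbouring gene Zfp574, whose start Grik5 adjoins. It had 189, 241, 293 and 275 RPM in brain and 195, 223 and 502 RPM in lung. The groups overlapped, and the ratio was 1.06 (0.948 to 1.18) with a log2 fold of −0.07 ± 0.22 (SE, adjusted p = 0.872). The value of 502 RPM was that of lung replicate 3 at 50 nuclei. The peak did not touch Grik5 itself.

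NMDA receptors, calcium-permeable channels that need glutamate and a co-agonist, had a peak at 4 of 7 genes, and 1 of the 4 peaks, at Grin1, was higher in brain. Grin1 encodes GluN1, the obligatory subunit of NMDA receptors. Its peak at the start (chr2:25319058-25319193, over the window shown above) had 41.0, 28.2, 50.1 and 32.2 RPM in brain. The lung libraries had 0, 0.163 and 4.43 RPM, with no read in any of the 3 of 50 nuclei. The tissues did not overlap, with 59 against 11 reads, a ratio of 27.1 (14.1 to 57.3) and a log2 fold of 6.08 ± 1.09 (SE, adjusted p = 0.000285). It passed in each of the 10 fits without a library.

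The Grin2d peak (chr7:45865933-45866260, gene body) is given in full as the NMDA peak with the highest mean over all 10 libraries, not adjusted for width. It had 19.2, 21.9, 25.1 and 27.9 RPM in brain and 0, 26.1 and 48.3 RPM in lung, where replicates 2 and 3 at 50 nuclei had no read and the others 25.6 RPM or more. The groups overlapped (log2 −0.01 ± 0.72 SE, adjusted p = 0.997). Without lung replicate 1 at 50 nuclei, which left that group at 0, the fitted log2 fold was 3.61 and the adjusted p 0.0173 by edgeR, while the lung libraries of 200 nuclei remained between 25.6 and 35.8 RPM. Grin2d encodes GluN2D, a subunit with slow deactivation. The peaks of Grin2a (GluN2A) and Grin3a (GluN3A) did not differ past the threshold, with log2 folds of −0.62 and 1.29. A further 4 peaks lay in reach of Grin2c, Grin2d or Grin3a but nearer another gene. Of these, 1 beside Grin2d, counted to Grwd1 (chr7:45830757-45831051), was higher in brain (log2 1.74 ± 0.56 SE, adjusted p = 0.0378). Grin2b, Grin2c and Grin3b had no peak of their own, and neither did Grid1, the delta receptor gene on the list.

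All 6 peaks at metabotropic glutamate receptor genes, at 4 of 6 genes, were higher in brain. Summed over the class they had 140, 175, 140 and 81.6 RPM in brain and 0, 4.53 and 11.6 RPM in lung. Grm3 encodes mGlu3, a group II receptor coupled to inhibition of adenylyl cyclase and found in astrocytes as well as neurons. Its 2 peaks lay just beyond the gene's upstream end. Peak 2 (chr5:9726011-9726221) had 24.6, 43.8, 42.6 and 25.8 RPM in brain and reads in 1 lung library, at 2.2 RPM. Its 52 brain reads against 3 lung reads gave a ratio of 87.7 (28.4 to 439) and a log2 fold of 6.73 ± 1.21 (SE, adjusted p = 0.000291). Peak 1 (chr5:9725892-9725988) was thinner, with 10.9, 15.7, 5.01 and 4.30 RPM in brain and a lung maximum of 1.66 RPM from 1 library. It had a log2 fold of 4.69 ± 1.37 (SE, adjusted p = 0.0234), and lost the call in 6 of the 10 fits without a library (lung replicates 2 or 3 at 200 nuclei, or any brain library), with adjusted p up to 0.0920.

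Grm7 encodes mGlu7, a low-affinity group III receptor of presynaptic active zones, and Grm8 encodes mGlu8, of the same group. Both Grm7 peaks lay at the start shown above. Peak 1 (chr6:110645285-110645393) had 16.4, 28.2, 15.0 and 12.9 RPM in brain, and a lung maximum of 1.46 RPM with 5 of 6 libraries at 0. Its log2 fold was 6.01 ± 1.34 (SE, adjusted p = 0.00268), from 27 against 2 reads. Peak 2 (chr6:110645572-110645665) had 24.6, 53.2, 27.6 and 19.3 RPM in brain and 0, 0 and 1.66 RPM in lung, with a log2 fold of 6.26 ± 1.21 (SE, adjusted p = 0.000643). Both were separate between tissues and passed in every fit without a library. The Grm8 peak (chr6:28136019-28136133), 930 bp upstream of a RefSeq start, had 49.3, 21.9, 32.6 and 19.3 RPM in brain and 0, 2.89 and 8.31 RPM in lung. It did not overlap between tissues (log2 3.31 ± 0.89 SE, adjusted p = 0.0129), and the adjusted p was 0.131 without brain replicate 1 at 50 nuclei and 0.0936 without brain replicate 1 at 200 nuclei.

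Grm5 encodes mGlu5, a group I receptor coupled to phospholipase C. Its peak (chr7:87586375-87586465, gene body) had 13.7, 12.5, 17.6 and 0 RPM in brain and 1 read in all of lung, at 0.732 RPM. Brain replicate 2 at 200 nuclei had no read, so the groups overlapped, and the ratio was 81.0 with a wide interval (12.6 to 3395). The log2 fold was 5.64 ± 1.39 (SE, adjusted p = 0.00682). Without brain replicate 1 at 200 nuclei that group was at 0, and the log2 fold was 2.66 with an adjusted p of 0.9998. Grm2 and Grm4, the other inhibitory autoreceptor genes on the list, had no peak.

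**Figure D3:**
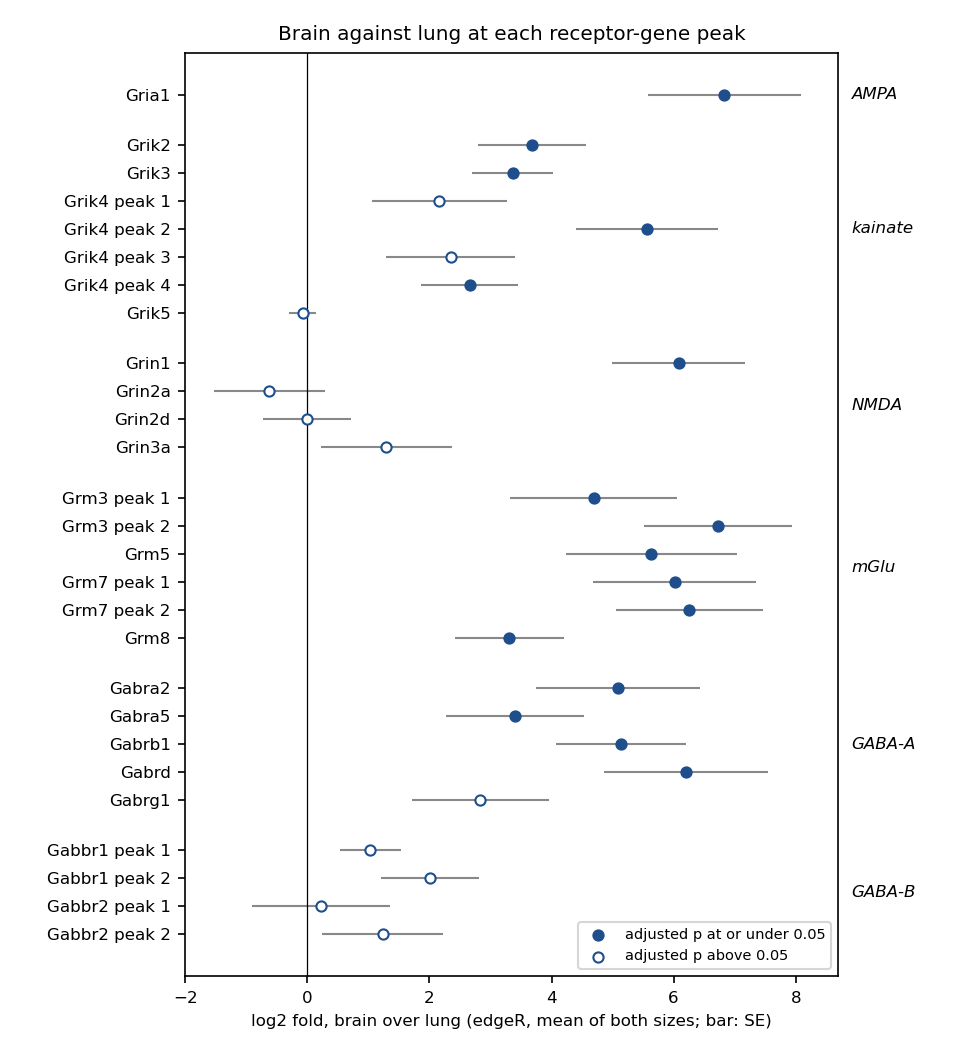
Log2 fold of brain over lung at each receptor peak, from the edgeR fit averaged over both sizes, with bars for SE. Filled points have an adjusted p at or under 0.05 and number 16, all to the right of 0. The metabotropic glutamate peaks run from 3.31 to 6.73 and the GABA-B peaks from 0.22 to 2.01.

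At the GABA-A receptor genes, 5 of 10 had a peak, and 4 of the 5 peaks were higher in brain. Gabra2 and Gabra5 encode alpha subunits, which help form the GABA and benzodiazepine sites. The Gabra2 peak (chr5:71095865-71095959), in the promoter shown above, had 2.74, 9.40, 27.6 and 19.3 RPM in brain and 0, 0.163 and 1.46 RPM in lung. The groups were separate, but the lowest brain value was a single read. The log2 fold was 5.09 ± 1.34 (SE, adjusted p = 0.0115), and the adjusted p was 0.164 without brain replicate 2 at 50 nuclei. The Gabra5 peak (chr7:57474308-57474398, gene body) had 10.9, 6.26, 32.6 and 4.30 RPM in brain and 0, 1.40 and 2.22 RPM in lung. It was the weakest call (log2 3.41 ± 1.13 SE, adjusted p = 0.0459) and passed in 2 of the 10 fits without a library, those without lung replicates 1 or 3 at 50 nuclei, the adjusted p reaching 0.319 in the others.

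Gabrb1 encodes the beta1 subunit. Its peak (chr5:71657927-71658074) had 32.8, 37.6, 25.1 and 15.0 RPM in brain and 0, 0 and 4.27 RPM in lung. The groups did not overlap, with a ratio of 51.9 (18.8 to 199) and a log2 fold of 5.14 ± 1.06 (SE, adjusted p = 0.00121), and it passed in every fit without a library. Gabra4 is transcribed away from Gabrb1 and their 5′ ends overlap under this peak, so that the reads of the 2 genes' ends cannot be told apart, and the nearest end gave the peak to Gabrb1. Gabrd encodes the delta subunit of extrasynaptic receptors that carry tonic inhibition. Its peak (chr4:155395543-155395673), which also lies in the overlapping gene Cfap74, had 30.1, 28.2, 50.1 and 2.15 RPM in brain and a lung maximum of 2.93 RPM, with 5 of 6 lung libraries at 0. Brain replicate 2 at 200 nuclei, at a single read, was below the highest lung library. The log2 fold was 6.20 ± 1.34 (SE, adjusted p = 0.00197), and the adjusted p was 0.209 without brain replicate 1 at 200 nuclei.

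The Gabrg1 peak (chr5:70842341-70842449), near the start of the gene for the gamma1 subunit, had 5.47, 18.8, 35.1 and 10.7 RPM in brain and 0, 0 and 23.5 RPM in lung. It did not pass (log2 2.83 ± 1.12 SE, adjusted p = 0.101). The lung maximum was 8 reads in replicate 2 at 50 nuclei, and without that library the log2 fold was 5.62 (adjusted p = 0.00879). Gabra3, Gabra4, Gabra6, Gabrb2 and Gabrg3 were assigned no peak.

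None of the 4 peaks at the GABA-B receptor genes passed by edgeR at an adjusted p of 0.05, and 2 of them, both at Gabbr1, had an unadjusted p under 0.05. DESeq2 called 1 of the 4, Gabbr1 peak 2. The functional receptor is a dimer of the products of Gabbr1, which binds GABA, and Gabbr2, which couples to the G protein. Gabbr1 peak 1 (chr17:37045822-37046099), over the promoter shown above, had 65.7, 59.5, 37.6 and 45.1 RPM in brain and 1.83, 29.3 and 38.2 RPM in lung, with reads in all 10 libraries. The highest lung library lay just above the lowest brain library (ratio 1.82, 1.39 to 2.36; log2 1.03 ± 0.50 SE, adjusted p = 0.189). Peak 2 (chr17:37050559-37050683, gene body) had 30.1, 47.0, 17.6 and 32.2 RPM in brain and 0, 5.73 and 22.7 RPM in lung (log2 2.01 ± 0.80 SE, adjusted p = 0.102). It passed without lung replicate 1 at 50 nuclei (log2 5.09, adjusted p = 0.00409), without lung replicate 3 at 50 nuclei (adjusted p = 0.0435) and by DESeq2 (adjusted p = 0.0414). The Gabbr2 peaks had log2 folds of 0.22 ± 1.13 and 1.24 ± 0.99 (SE).

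**Figure D4:**
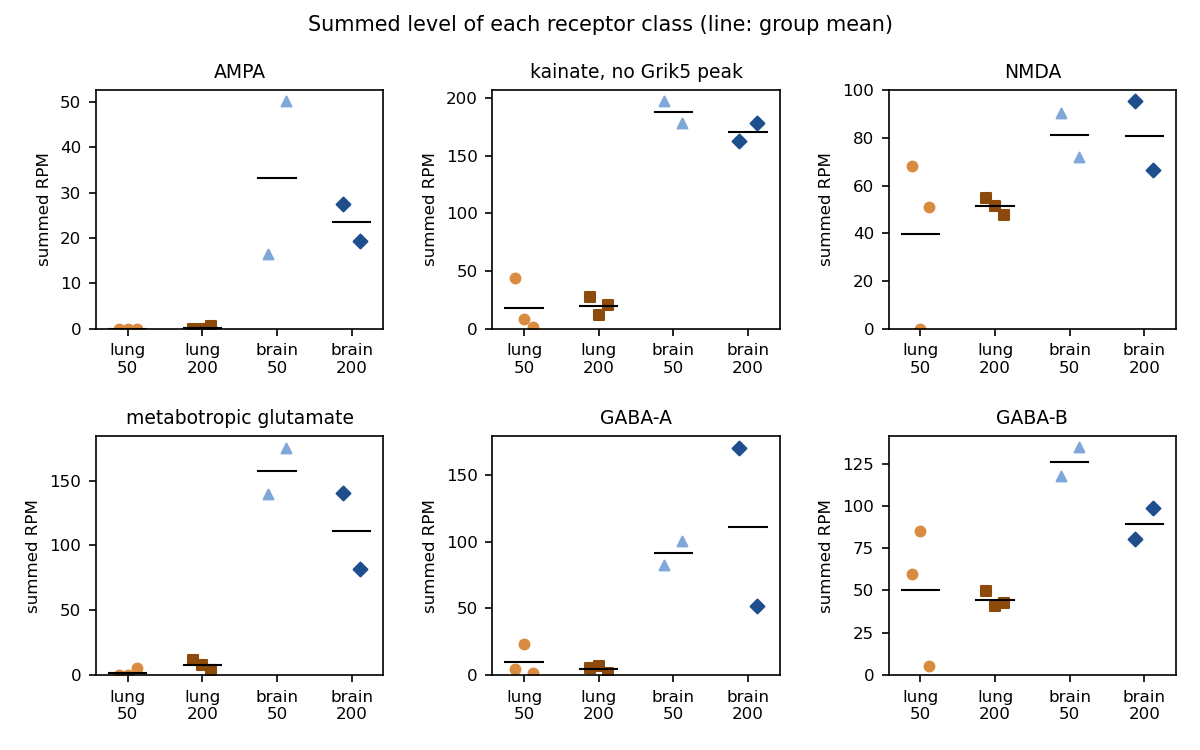
Summed level of the peaks of each receptor class in each library, the Grik5 peak left out of kainate, in reads per 1000000 nuclear-peak reads, with symbols as single libraries, lines as group means and each panel on its own axis from 0. Brain libraries lie above lung libraries in the AMPA, kainate (without Grik5), metabotropic and GABA-A panels, and lie closer to them in the NMDA and GABA-B panels.

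The class sums set these patterns side by side, each over its own peaks. AMPA had 28.4 ± 15.2 RPM in brain (SD, n = 4) and 0.108 ± 0.265 RPM in lung (SD, n = 6), from a single peak. Kainate without the Grik5 peak had 179 ± 13.9 and 19 ± 15.2 RPM. Metabotropic glutamate receptors had 134 ± 38.8 and 4.79 ± 4.59 RPM, and GABA-A receptors 101 ± 50.4 and 7.17 ± 8.25 RPM. In these 4 sums, with kainate taken without the Grik5 peak, every brain library exceeded every lung library. With the Grik5 peak, kainate had 386 to 456 RPM in brain and 207 to 504 RPM in lung, so the tissues overlapped. NMDA had 81.1 ± 13.9 and 45.5 ± 23.4 RPM, and GABA-B 108 ± 23.5 and 47.2 ± 26.1 RPM. The highest lung library (68.2 RPM for NMDA, 85.1 RPM for GABA-B) reached above the lowest brain library (66.6 and 80.2 RPM) in both. The difference between classes was not tested.

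Within a size the same direction was seen with fewer calls. At 50 nuclei 4 of the 27 peaks were higher in brain (Gria1, Grin1, Grm3 peak 2 and Grm7 peak 2), where 0.918% of all tested peaks were, and 0 were higher in lung, where 0.488% were. At 200 nuclei 6 were higher in brain (Gria1, Grin1, Grik3, Grm3 peak 2, Gabrb1 and Grik4 peak 2), with 1.01% of all peaks, and 0 higher in lung, with 1.22%. These counts moved with single libraries: at 50 nuclei they ran from 0, without any one brain library, to 10, without lung replicate 1 at 50 nuclei. At 200 nuclei they ran from 0, without lung replicates 1 or 3 or either brain replicate at 200 nuclei, to 12, without lung replicate 3 at 50 nuclei. The count was 1 without lung replicate 2 at 200 nuclei or either brain library of 50 nuclei, and 10 without lung replicate 2 at 50 nuclei. At 50 nuclei it was also 7 without lung replicate 3 at 50 nuclei and 2 without lung replicate 2 at 200 nuclei. The share of all tested peaks higher in brain moved too. At 50 nuclei it was 6.75% in the fit with 10, 1.84% in that with 7 and 0.473% in that with 2. At 200 nuclei it was 3.21% in the fit with 12 and 1.89% in that with 10. It was 0.232, 0.195 and 0.128% there without lung replicates 1, 2 and 3 at 200 nuclei. Without any 1 brain library the share fell at both sizes.

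Mini-bulk size itself gave no call by edgeR at an adjusted p of 0.05. In brain 0 of the 27 peaks differed between 200 and 50 nuclei, as did 0% of all peaks, and 0 of the 27 had an unadjusted p under 0.05 by edgeR or DESeq2, beside 1.13% and 1.3% of all peaks. In lung 0 of the 27 and 0% of all peaks differed, 2 of the 27 (Grik4 peak 2 and Grin3a) had an unadjusted p under 0.05, beside 8.19% of all peaks, and DESeq2 had 3 unadjusted, beside 8.33%, and 0 adjusted. Without lung replicate 1 at 50 nuclei, 1 receptor peak was called in lung, as were 253 of all 37456 peaks (0.675%). The tissue difference depended on size at 0 of the 27 and 0% of all peaks, with 0 of the 27 at an unadjusted p under 0.05 by edgeR and 2 by DESeq2, beside 4.09% and 4.21% of all peaks. The SEs of the size effect, derived from the fold and the F statistic as above, ran up to 1.80 in brain and 2.44 in lung on the log2 scale. Their lowest values were 0.35 and 0.27, at the Grik5 peak. They are a rough guide to how precisely the size effect was measured.

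The 27 peaks were narrow. Their median width was 114 bp, against 164 bp for all tested nuclear peaks and 130 bp for all those higher in brain. Of the 27, 12 (44.4%) had their centre within 1000 bp of a gene end, against 36.8% of all tested nuclear peaks. Among the 16 higher in brain it was 9 (56.25%), beside 39.7% of all nuclear peaks higher in brain. Among the other 11 it was 3 (27.3%). A RefSeq promoter window existed for the genes of 22 of the peaks, and 7 of these peaks lay over one. Over all tested nuclear peaks it was 8696 of 22825. Of the 13 such receptor peaks that were higher in brain, 6 lay over a window, beside 510 of 1333 of all nuclear peaks higher in brain.

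Genes that work with these receptors were counted in the same fit. Of 15 peaks at 12 of 20 auxiliary subunit genes, 5 were higher in brain and 0 in lung (median log2 1.16). They were at Cacng3 and Cacng7, TARP proteins that traffic AMPA receptors, at Shisa9, another AMPA receptor partner, and at Kctd16 (2 peaks), which binds GABA-B receptors. The Cacng7 peak had 32.5 ± 12.8 RPM in brain (SD, n = 4) and 1.49 ± 2.35 RPM in lung (SD, n = 6), with a log2 fold of 4.24 ± 0.96 (SE, adjusted p = 0.0030). The Shisa9 peak had 18.2 ± 6.34 and 0.176 ± 0.302 RPM. Of 15 peaks at 12 of 18 genes of transmitter synthesis and transport, 6 were higher in brain and 0 in lung (median log2 1.55), among them peaks at Slc6a11, which takes up GABA, Abat and Aldh5a1, which break it down, and Glud1, glutamate dehydrogenase. The Abat peak averaged 70.7 ± 27.6 RPM over the brain libraries and 9.69 ± 6.68 over those of lung (SD).

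Anchors and scaffolds, which hold receptors at the synapse, had 48 peaks at 22 of 26 genes, and 10 were higher in brain and 1 in lung (median log2 0.79). Those higher in brain were at Dlg2, Dlgap1, Dlgap2, Homer1, Pick1 and Shank2 of the excitatory synapse, and at Iqsec3 of the inhibitory synapse. A Dlgap1 peak (chr17:69969112-69969220) had 30 brain reads and no lung read, and was at least 50.6-fold higher in brain against a floor of 3 reads over the lung group. A Dlg2 peak (chr7:91262053-91262143) had 20 brain reads and no lung read, at least 33.7-fold higher in pooled reads against the same floor. Its lowest brain library was also at 0 RPM, so the groups overlapped. Homer1 differed least of the brain-higher scaffold peaks, at 133 ± 13.8 and 75.3 ± 14.8 RPM. The peak higher in lung was at Shank3, with 33.1 ± 15.0 RPM in brain and 78.2 ± 31.5 RPM in lung (log2 −1.33 ± 0.42 SE). Of 7 peaks at 5 of 17 other glutamate, GABA and glycine receptor genes, 3 were higher in brain, among them a peak at Glra4, a glycine receptor gene, and 0 in lung (median log2 3.11). The shares higher in brain were 33.3% for auxiliary subunits, 20.8% for scaffolds, 40.0% for synthesis and transport and 42.9% for the other receptors, beside 5.78% of all tested peaks.

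**Figure D5:**
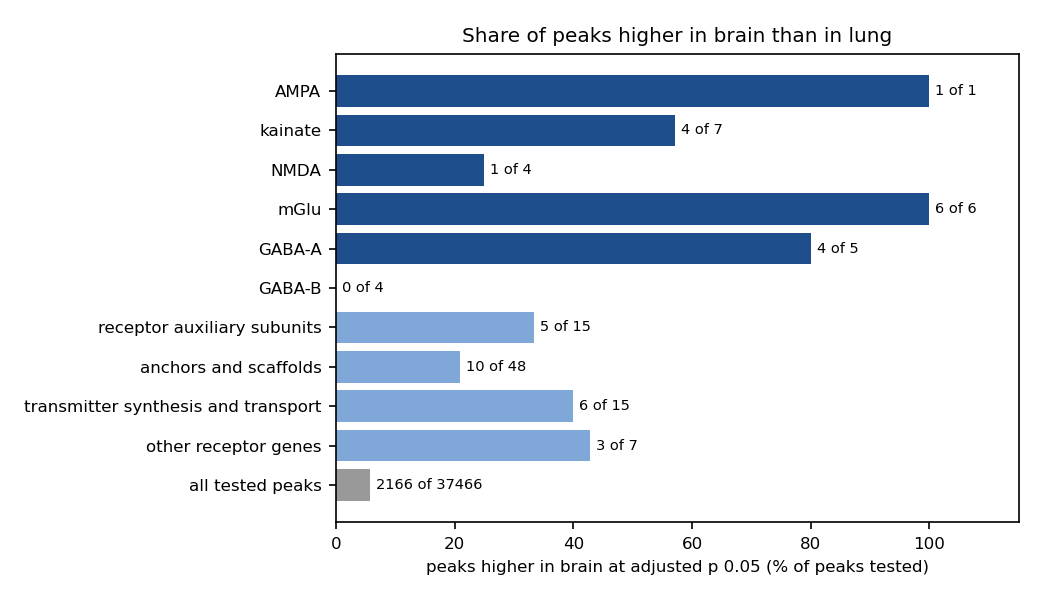
Share of peaks higher in brain than in lung at an adjusted p of 0.05, in percent of the peaks tested, for the 6 receptor classes with a peak (dark), 4 lists of related genes (light) and all tested peaks (grey), with counts at the bars. The bars run from 0 of 4 for GABA-B to 6 of 6 for metabotropic glutamate receptors, beside 2166 of 37466 for all peaks.

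Of the 16 peaks higher in brain, 7 passed in each of the 10 fits without a library: Gria1, Grik3, Grin1, Grm3 peak 2, both Grm7 peaks and Gabrb1. The share of all peaks higher in brain that passed in every such fit is not given here. The count of receptor peaks higher in brain was 9 without brain replicate 1 at 200 nuclei, where 2.37% of all peaks were higher in brain. It was 11 to 19 without each of the other libraries, where the share of all peaks moved too, from 2.54% in the fit with 11 to 14% in the fit with 19, the fit without lung replicate 1 at 50 nuclei. Scaled by library totals with mitochondrial reads included, the median log2 fold of all peaks shifted from 0.07 to −3.34. On that scale 6 of the 27 were higher in brain (Gria1, Grik4 peak 2, Grin1, Grm3 peak 2, Grm7 peak 2 and Gabrd), beside 252 of all peaks (0.673%). The other 6 called were higher in lung (Grik5, Grin2a, Grin2d, Gabbr1 peak 1 and both Gabbr2 peaks), as were 30079 of all 37466 peaks.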

How the data were processed

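ATAC-seq was measured in 10 libraries, 6 of lung and 4 of brain. The authors deposited whole-number counts per peak, not normalized. Per the submitters' processing notes the build was mm10 and the tools listed, without their roles, were Bowtie2 2.4.5, MACS2 2.2.7.1, SAMtools 1.14, Picard, Trimmomatic 0.36, deepTools 3.1.3, bcl2fastq 2.20 and R 4.1.0. Peak merging, the counting unit, duplicate removal and a Tn5 shift are steps not given in the sources used here. Duplicates left in would widen the spread between libraries of few nuclei.

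Peaks were placed on RefSeq gene spans of GRCm38.p6, using protein-coding and listed genes. A gene-end peak has its centre within 1000 bp of a gene end. Coordinates are as in the file. The 2 mitochondrial peaks were kept in the fit and left out of RPM.

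The edgeR 4.0.16 quasi-likelihood fit (R 4.3.3, TMM) had a mean for each of the 4 groups and took the 37466 peaks with at least 10 reads in all. Its common dispersion was 0.350. Calls used Benjamini-Hochberg adjusted p at 0.05 over all tested peaks. Data were also simulated for brain against lung averaged over size (37415 peaks). Of peaks made higher in brain, 38 of 50 were called at a log2 fold of 3 and 50 of 50 at 4. At −3 and −4, 14 of 50 and 21 of 50 were called, as were 4 of 37215 unchanged peaks. These rates hold for the simulated data only. Whether the simulation matched the spread between the measured libraries was not tested, so they are not call or error rates of the measured peaks. Alternatives were DESeq2 1.42.0, other scalings and filters, omitted libraries, a replicate block, an additive model, and other assignment rules.

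All values are given for called peaks, for the peak with the highest mean in each class and for the 3 uncalled peaks with the lowest p. The receptor genes, lists and tests were chosen with earlier results of these data known. Some genes with a called peak in the lists of related genes are not reported here by name.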

Additional observations from a re-analysis of the deposited data

Results flagged for a closer look

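In 16 of 54 sets of libraries (27 peaks in brain and in lung), 1 library stood apart from the others of its tissue by Dixon's 95% limit, all 16 in lung. Chance flags about 1 in 20 sets where values are continuous and normally spread, and each set pooled both mini-bulk sizes. These values are small counts, and where every other library has no read, any read is flagged. The 1 in 20 rate therefore does not hold here, and no excess over chance can be read from the 16 flagged sets. In 7 of them every other lung library had no read: Gria1 (0.650 RPM, replicate 3 at 200 nuclei), Grik4 peak 2 (4.27 RPM, replicate 1 at 50 nuclei), Grm3 peak 1 (1.66 RPM, replicate 1 at 200 nuclei), and Grm3 peak 2 (2.2 RPM), Grm5 (0.732 RPM), Grm7 peak 1 (1.46 RPM) and Gabrd (2.93 RPM), these 4 in replicate 2 at 200 nuclei. These rest on 1 to 4 reads.

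Among the lung libraries of 50 nuclei, replicate 1 was high at Grik4 peak 3 (8.53 RPM), Gabrb1 (4.27 RPM) and Gabbr1 peak 2 (22.7 RPM). Replicate 2 was high at Grik4 peak 1 (8.81 RPM), Gabrg1 (23.5 RPM) and Gabbr2 peak 1 (38.2 RPM), and replicate 3 at the Grik5 peak (502 RPM) and Grin2a (51.1 RPM). At 200 nuclei replicate 1 was high at Grin1 (4.43 RPM, 8 reads), below every brain library.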

How the results depend on the processing

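The count of 16 peaks higher in brain was 3 under edgeR's default filter, which tested 11 of the 27. Only 3 of the 16 were among those tested, and all 3 were called. With scaling by library totals the count was 6, where 6 and not 0 were higher in lung. Without single libraries it was 9 to 19. At 50 nuclei the count of 4 was 10 by DESeq2 and 0 to 10 without single libraries, and at 200 nuclei the count of 6 was 10 by DESeq2 and 0 to 12. The size count in lung was 0 to 1 without single libraries. With replicate numbers as a block the counts were 11, 2 and 1, averaged, at 50 and at 200 nuclei. No pairing by replicate number was seen: deviations of same-numbered libraries correlated at −0.030 to 0.019 over peaks in 13 pairs, and those of other libraries at −0.027 to 0.030 in 24. In a brain group of 2 libraries the deviations mirror each other, so the pairs are not independent. The check therefore cannot exclude a pairing. Over all peaks, 2166 higher in brain and 1630 in lung became 3386 and 2127 by DESeq2, 829 and 1205 under the default filter, 969 and 1059 with the block, and 252 and 30079 with library totals. Within a size, DESeq2 placed 3.77% of all peaks higher in brain at 50 nuclei and 2.2% at 200 nuclei. With the block these shares were 0.577% and 0.374%. The causes were not tested. Library totals turned the log2 fold, brain over lung, negative at Grik4 peaks 1, 3 and 4 (−1.35, −0.86 and −0.64), Grin3a (−1.95), Grm8 (−0.035), Gabrg1 (−0.60), Gabbr1 peaks 1 and 2 (−2.44 and −1.33) and Gabbr2 peaks 1 and 2 (−3.32 and −2.19). Over the fits without single libraries the sign changed at 4 peaks: Grik4 peak 1 (−0.71, without brain replicate 2 at 200 nuclei, to 4.21), Grik5 (−0.19 to 0.10), Gabbr2 peak 1 (−0.22 to 3.38) and Grin2d (−0.33 to 3.61). The highest Grin2d value was without lung replicate 1 at 50 nuclei. It also changed at Grik5 (0.0058 by DESeq2, 0.11 with the block), Gabbr2 peak 1 (−0.084 with the block) and Grin2d (0.15 by DESeq2, 0.040 by nuclear totals, 0.010 without mitochondrial rows, 0.049 under the default filter). Class sums moved by less than their SD with TMM library sizes or thinned to 319307 reads. Brain libraries had 304 to 387 receptor reads and groups held 2 or 3 libraries. Which of these limits the calls more was not tested.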
